A study of Mus musculus with 6 samples.

Results

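The genes described here encode TRP channels, polycystins, acid-sensing channels, TMEM63 channels and TMC proteins. They were chosen by gene symbol, from probe sets that carry only that symbol, with the probe set of the highest mean over all libraries standing for the gene. This gave 40 of 18193 genes on the array: 6 TRPC, 8 TRPM, 4 TRPV, 1 TRPA, 3 TRPML, 3 polycystin, 5 ASIC, 3 TMEM63 and 7 TMC genes. Some further genes whose symbol meets the rule were not analysed here. Cells had been sorted by EGFP fluorescence from the colon of Mapttm1(EGFP)Klt/J mice, in which EGFP is expressed from the locus of the neuronal microtubule protein tau. The 3 libraries labelled EGFP-positive were described as colonic neurons and the 3 labelled EGFP-negative as myenteric cells, with 2, 4 or 6 mice pooled per library. All mice of both groups carried the EGFP allele and had been injected with fluorescent cholera toxin subunit B at the celiac ganglion and were killed 3 to 4 days later. The zygosity of the allele, the ages and the number of mice behind each single library are not given in the sources used here.

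Most of these proteins are cation channels that open to temperature, irritants, acid, stretch, osmotic change or signalling lipids, and several let calcium into the cell. In the gut wall, members of the group are known from sensory nerve endings, enteric neurons, glia, smooth muscle, macrophages and the epithelium. TRPC channels open downstream of receptors that couple to Gq and phospholipase C, while mucolipins (TRPML) sit in lysosomes and polycystin-1 works with the channel polycystin-2. The comparison between the 2 labels shows which of these transcripts accompany sorted EGFP-positive cells.

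The labels were first set against marker genes. Mapt read 1.43, 1.32 and 5.55 as log2 values in EGFP-positive libraries 1, 2 and 3, against 1.44, 1.64 and 1.38 in the EGFP-negative ones. Probe sets for TrpnX, a bacterial transcript that served as background, read 1.00 to 1.48. Since this allele inserts EGFP into Mapt, that gene is a limited check, but the mean of 12 pan-neuronal genes gave the same picture, at 3.09, 3.09 and 6.34 against 3.14, 3.46 and 3.72. EGFP-positive libraries 1 and 2 therefore went against their label, and the differences that carry the results are also given with EGFP-positive library 3 as the only one of its group, a fit in which that single library is assumed to vary like the others. In that fit no member passed either, and the lowest adjusted p of a member was 0.163 (limma), for Tmc7. Markers of several other cell types read well above the TrpnX range in both groups. The means of the marker lists ran from 8.70 to 10.70 against 9.04 to 10.98 for 7 smooth muscle genes, from 10.36 to 11.11 against 10.54 to 11.33 for 6 fibroblast and PDGFRA-positive cell genes, from 5.03 to 8.36 against 5.83 to 7.57 for 7 epithelial genes and from 7.53 to 10.02 against 7.73 to 9.64 for 5 mesothelial genes. Enteric glia genes (7) ran from 5.76 to 7.92 against 4.74 to 5.64, and the 9 macrophage genes from 2.36 to 6.74 against 6.62 to 8.66. The 9 lymphocyte and mast cell genes ran from 1.42 to 2.25 against 2.64 to 4.84, the 6 endothelial genes from 4.53 to 7.16 against 6.35 to 6.97 and the 2 Cajal cell genes from 5.96 to 7.62 against 6.33 to 8.52. The lymphocyte and mast cell mean was 1.64 and 1.42 in EGFP-positive libraries 2 and 3, near the TrpnX range. That list includes Kit, also a Cajal cell gene, which read 5.10 and 3.40 in these libraries. Probe sets above a log2 value of 6 numbered 6182 in EGFP-negative library 1 and 7135 to 7621 in the other libraries. In such bulk samples, fewer cells of a type and less RNA per cell cannot be told apart.

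Of the 40 channel genes, 12 exceeded a log2 value of 4 in at least 1 library, and 28 (70.0%) never did, against 47.8% of all genes. Between 5 and 10 members exceeded that value in a library. None of the 40 passed the test between the labels (limma over all genes, Benjamini-Hochberg adjusted p under 0.05), where 0 of all 18193 genes (0%) passed, and the lowest adjusted p among members was 0.986. At an unadjusted p under 0.05, 1 member was higher (Asic2), beside 1.48% of all genes, and 0 were lower, beside 3.43%. The labels do not say that libraries with the same number are pairs, but such libraries deviated together. With the replicate number as a block, 2 members (Asic2 and Trpc2) were higher at unadjusted p under 0.05, beside 2.85% of all genes. In that block 0 genes passed after adjustment, with 0.661 as the lowest adjusted p of a member. The groups did not overlap for 3 members that were higher (Asic2, Tmem63b and Tmem63c, beside 3.07% of all genes) and 2 that were lower (Tmc1 and Tmc2, beside 6.04%). Both shares of members, 3 and 2 of 40, rest on few genes. The EGFP-positive library was higher in all 3 same-numbered pairs for 6 members, beside 11.3% of all genes, and lower in all 3 for 5, beside 16.2%. The mean was higher in the EGFP-positive group for 25 of 40 members, beside 46.4% of all genes. The median log2 difference, EGFP-positive minus EGFP-negative, was 0.06 over the 40 members and -0.02 over all genes. With arrays centred on 42 ribosomal protein genes, the median of all genes moved to 0.34 and that of the members to 0.41.

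**Figure D1:**
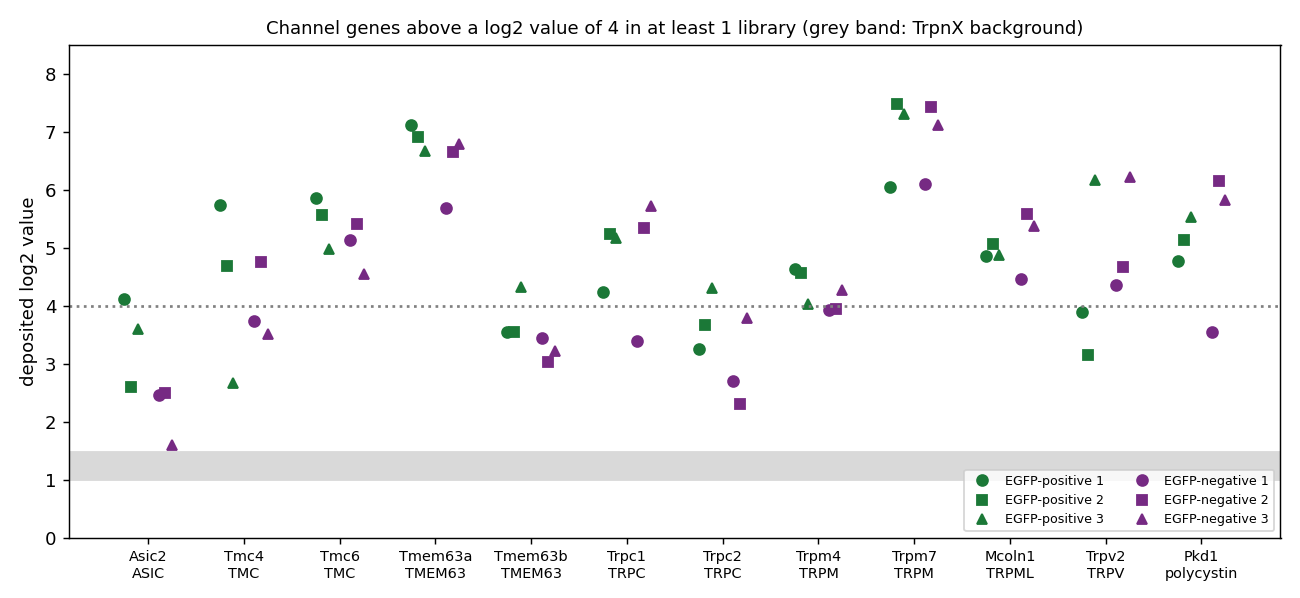
Deposited log2 values (vertical axis) of the 12 channel genes that exceeded 4 (dotted line) in at least 1 library, in 3 EGFP-positive (green) and 3 EGFP-negative (purple) libraries, with the shape giving the replicate number and the grey band the TrpnX range of 1.00 to 1.48. The groups overlap in all but Asic2 and Tmem63b. Same-numbered libraries sit together in Trpm7, and in Trpv2 those of number 3 do.

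Trpm7, a magnesium- and calcium-permeable channel with a kinase domain that most cells express, gave different answers in its 4 probe sets. The probe set that stands for the gene, 1416799_at, read 6.05, 7.47 and 7.30 in the EGFP-positive libraries and 6.10, 7.43 and 7.11 in the EGFP-negative ones. Its log2 difference was 0.06 (SE 0.52), and both number 1 libraries were low. Probe set 1416800_at had the same low number 1 libraries, at 3.83, 5.83 and 5.72 against 3.63, 4.98 and 4.73. Its groups overlapped, but the EGFP-positive library was higher in every pair, by 0.20, 0.86 and 0.98. The log2 difference was 0.68 with an SE of 0.66, or of 0.20 with the replicate block (limma adjusted p = 0.972 and 0.467 over 45037 probe sets). Probe set 1416801_at read 7.28, 6.46 and 6.16 against 5.99, 5.89 and 5.73, and 1431355_s_at read 6.95, 5.41 and 5.12 against 4.97, 2.99 and 4.51. In these last probe sets the groups did not overlap and EGFP-positive library 1 held the highest value. Their log2 differences were 0.77 (SE 0.30) and 1.67 (SE 0.70), with limma adjusted p = 0.757 and 0.784. Among the 67 probe sets of the members, 6 had groups that did not overlap with higher values in EGFP-positive libraries, beside 6.16% of all probe sets, and 3 with lower values, beside 4.72%. The mean of the 4 Trpm7 probe sets was 6.03, 6.30 and 6.08 against 5.17, 5.32 and 5.52, a log2 difference of 0.79 (SE 0.14) without overlap. When all genes were summarised this way, the groups did not overlap with higher EGFP-positive values for 4 members, beside 4.56% of all genes, and an unadjusted p under 0.05 was reached by 2 higher members, beside 2.33%. That difference did not pass either (limma adjusted p = 0.76), and the choice of probe set moved it from 0.06 to 1.67. With EGFP-positive library 3 alone, the mean of the probe sets differed by 0.74 (SE 0.20) and the single probe sets by 0.29 to 1.27.

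**Figure D2:**
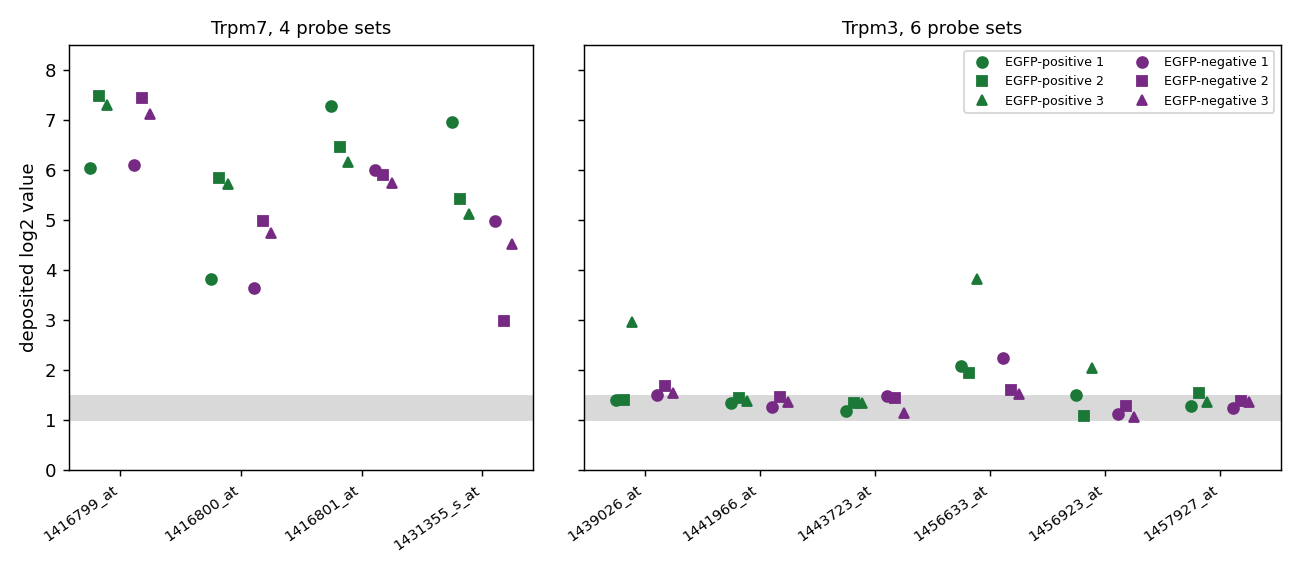
Deposited log2 values (vertical axis) of each probe set (horizontal axis) of Trpm7, left, and Trpm3, right, with group colours, replicate shapes and the TrpnX band as in the plot of levels. Trpm7 probe sets 1416801_at and 1431355_s_at separate the groups and the other 2 do not, while in Trpm3 only 3 of 6 probe sets place EGFP-positive library 3 above all other libraries.

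The other TRPM genes were dim or differed little. Trpm4, a channel opened by intracellular calcium that carries monovalent ions, read 4.63, 4.57 and 4.03 against 3.92, 3.95 and 4.27. Its means were 4.41 ± 0.33 (SD, n = 3) and 4.05 ± 0.19 (SD, n = 3), and the difference of 0.37 ran from 0.26, without EGFP-positive library 1, to 0.56, without EGFP-positive library 3. It became -0.015 with EGFP-positive library 3 alone. Trpm3, which responds to heat and to the neurosteroid pregnenolone sulfate, read 2.09, 1.94 and 3.82 against 2.25, 1.60 and 1.51. The value in EGFP-positive library 3 stood 1.57 above the next library, and the log2 difference was 0.83 (SE 0.56), or 0.22 without that library and 2.04 (SE 0.39) with it alone (limma adjusted p = 0.303). Probe sets 1439026_at and 1456923_at gave the same library the highest value, 2.96 and 2.04, while the other 3 stayed between 1.13 and 1.53. Trpm6, a magnesium channel of the colonic and renal epithelium, ranged from 1.48 to 3.22. Trpm8, the cold and menthol receptor, ranged from 1.29 to 1.98, Trpm5, a taste and tuft cell channel, from 1.42 to 1.93, Trpm2 from 1.46 to 1.71 and Trpm1 from 1.47 to 1.58, close to the TrpnX range. Of the 5 tuft cell genes, which include Trpm5 itself, Pou2f3, Trpm5 and Il25 were at or below 2 in all libraries, while Avil ranged from 2.18 to 2.96 and Dclk1 from 6.50 to 7.84.

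Among TRPC genes, Trpc1 and Trpc2 were the members above 4. Trpc1, which joins other TRPC subunits in channels opened by receptors and calcium stores, read 4.23, 5.23 and 5.17 against 3.39, 5.34 and 5.72. Its groups overlapped, and the log2 difference of 0.06 (SE 0.68) became -0.65 without EGFP-negative library 1, the lowest library, and 0.35 (SE 1.12) with EGFP-positive library 3 alone. Trpc2, the pheromone transduction channel of the mouse vomeronasal organ, read 3.26, 3.66 and 4.31 against 2.69, 2.31 and 3.78. Within same-numbered pairs it was higher in the EGFP-positive library by 0.56, 1.36 and 0.53. The log2 difference was 0.82 with an SE of 0.47, or of 0.22 with the replicate block (limma adjusted p = 1.00 and 0.661). It ran from 0.51, without EGFP-negative library 2, to 1.24, without EGFP-negative library 3, and was 1.38 (SE 0.70) with EGFP-positive library 3 alone. Its other probe set had a difference of 0.40 (SE 0.25), also higher in every pair. The annotation gives 2 further probe sets both Trpc2 and a neighbouring or joint transcript (Xndc1 or Xntrpc), and these were not used. Trpc4, a Gq-operated channel of intestinal smooth muscle, read 2.22, 1.84 and 3.49 against 2.67, 1.87 and 2.36, with its highest value in EGFP-positive library 3. Trpc6, its smooth muscle relative, ranged from 1.53 to 2.13, Trpc7 from 1.99 to 2.59 and Trpc5 from 0.84 to 1.11.

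Trpv2, a channel of macrophages, muscle and enteric neurons, was the only member of the TRPV and TRPA families above 4. It read 3.90, 3.15 and 6.17 in the EGFP-positive libraries and 4.36, 4.67 and 6.21 in the EGFP-negative ones, so that both number 3 libraries were high. Within pairs the EGFP-positive library was lower by a log2 difference of -0.47, -1.53 and -0.04. Over the groups the difference was -0.68 (SE 0.91, or 0.34 with the replicate block, limma adjusted p = 0.747), and it was 1.08 with EGFP-positive library 3 alone. It was -0.05 without EGFP-positive library 2 and -1.56 without EGFP-positive library 3. The smooth muscle list, chosen for this comparison after its values were seen, was also highest in the number 3 libraries, at 9.25, 8.70 and 10.70 against 9.63, 9.04 and 10.98. The macrophage list read 6.74, 3.41 and 2.36 against 8.18, 8.66 and 6.62 and so was lowest where Trpv2 was highest in the EGFP-positive group. The pan-neuronal list was likewise highest in library 3 of each group, at 3.09, 3.09 and 6.34 against 3.14, 3.46 and 3.72. The part of any of these cell types in the Trpv2 values was not tested. Trpv4, an osmosensitive channel of epithelium, endothelium and macrophages, read 2.03, 1.92 and 1.75 against 2.03, 2.82 and 2.31, a log2 difference of -0.48 (95% interval -1.05 to 0.08). That difference was -0.27 without EGFP-negative library 2, and -0.64 with EGFP-positive library 3 alone. The capsaicin receptor Trpv1 ranged from 1.13 to 1.72, the calcium channel Trpv6 from 1.38 to 1.60, and the irritant receptor Trpa1 from 1.29 to 1.66. At these levels, which reach into the TrpnX range, no difference could be read. Trpa1 is known from enterochromaffin cells, of whose 5 marker genes Tph1 was at or below 2 in all libraries. The other enterochromaffin markers, which are not particular to those cells, ranged from 1.62 to 4.56 (Chga), 2.93 to 6.40 (Chgb), 4.14 to 6.52 (Tac1) and 4.88 to 5.80 (Ddc). The groups did not overlap for Chga and Ddc, both higher in EGFP-positive libraries, or 2 of 5 beside 3.07% of all genes.

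Mcoln1, the lysosomal mucolipin-1 channel, read 4.85, 5.06 and 4.87 against 4.46, 5.58 and 5.37, with overlapping groups and a log2 difference of -0.21 (SE 0.31), or -0.27 with EGFP-positive library 3 alone. Its probe set 1416671_a_at held the identical value 1.43 in all 3 EGFP-positive libraries. Mcoln2 and Mcoln3, the other mucolipins, ranged from 1.36 to 2.29 and from 1.25 to 1.44. Pkd1, which encodes the large receptor-like polycystin-1, read 4.78, 5.14 and 5.52 against 3.55, 6.14 and 5.82. EGFP-negative library 1 was the lowest and the other EGFP-negative libraries were the highest, and the group difference of -0.03 (SE 0.72) ran from -0.84, without EGFP-negative library 1, to 0.46, without EGFP-negative library 2, when single libraries were left out. It was 0.35 (SE 1.26) with EGFP-positive library 3 alone. Of the 12 members above 4, 5 (Mcoln1, Pkd1, Tmem63a, Trpc1 and Trpm4) had their lowest value in EGFP-negative library 1, or 41.7%, against 37.4% of the 9488 genes above 4 in any library. Pkd2l1 and Pkd2l2, the polycystin-2-like channels, ranged from 1.41 to 2.16 and from 1.08 to 1.31.

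Asic2 had the highest difference among the members. This subunit of proton-gated sodium channels, found in central and sensory neurons, read 4.12, 2.59 and 3.59 in the EGFP-positive libraries and 2.46, 2.50 and 1.60 in the EGFP-negative ones. Every EGFP-positive value lay above every EGFP-negative one, although EGFP-positive library 2 exceeded EGFP-negative library 2 by only 0.09. The means were 3.44 ± 0.77 (SD, n = 3) and 2.19 ± 0.51 (SD, n = 3), a log2 difference of 1.25 (SE 0.46, 95% interval 0.09 to 2.40). This did not reach the threshold (limma adjusted p = 0.986, and 0.664 with the replicate block). When single libraries were left out the difference ran from 0.91, without EGFP-positive library 1, to 1.67, without EGFP-positive library 2, and with EGFP-positive library 3 alone it was 1.41 (SE 0.48). Its highest value was in EGFP-positive library 1, in which the pan-neuronal mean was 3.09 and that of enteric glia 6.22. In EGFP-positive library 3, where both lists were highest (6.34 and 7.92), Asic2 read 3.59. The part of these cells in the Asic2 values was not tested. Asic1, a main proton-gated subunit of neurons, read 1.43, 1.46 and 2.31 against 1.40, 1.37 and 1.44 and stood out in EGFP-positive library 3. The sensory neuron subunit Asic3 ranged from 1.22 to 1.74, Asic4 from 1.74 to 1.93 and Asic5 from 1.44 to 1.87.

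**Figure D3:**
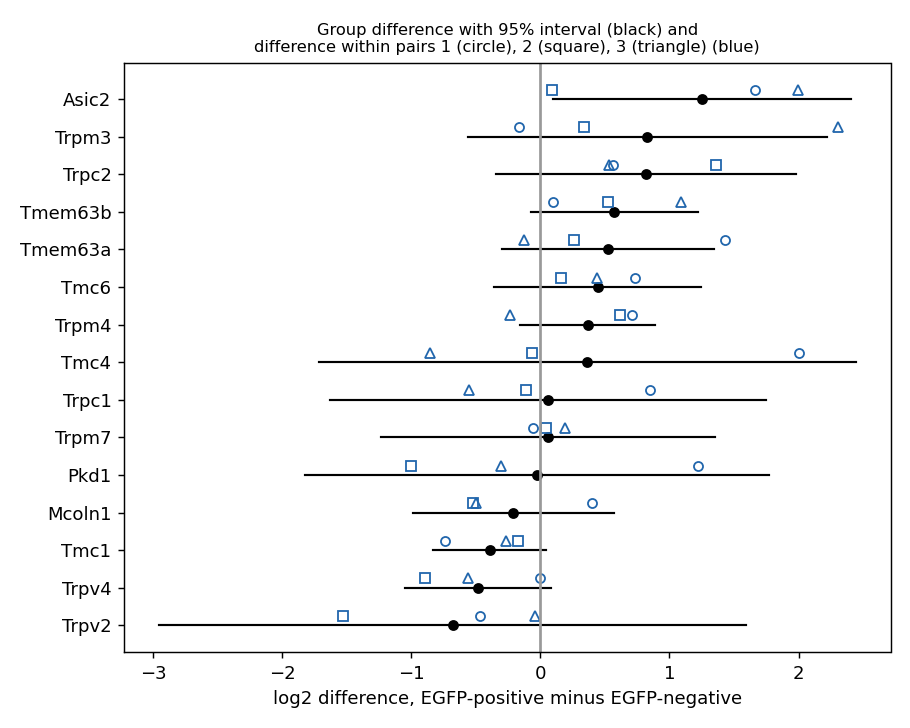
Log2 differences, EGFP-positive minus EGFP-negative (horizontal axis), of the 15 named members: black points and lines are the group difference with its 95% interval from limma, and blue shapes are the 3 differences within same-numbered pairs. The interval of Asic2 alone excludes 0 before adjustment, and for Trpv2, Trpc2, Tmc6, Tmem63b, Tmc1 and Asic2 all 3 pairs lie on the same side.

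TMEM63 proteins are channels opened by stretch and osmotic change. Tmem63a read 7.12, 6.92 and 6.67 against 5.69, 6.66 and 6.79. The difference of 0.52 (SE 0.33) was 0.18 without EGFP-negative library 1, whose value was the lowest, and 0.29 (SE 0.56) with EGFP-positive library 3 alone. Tmem63b read 3.55, 3.55 and 4.32 against 3.45, 3.02 and 3.23, without overlap between the groups. EGFP-positive libraries 1 and 2 held an identical deposited value (3.5493). The log2 difference of Tmem63b was 0.57 (SE 0.26, limma adjusted p = 1.00), and 1.09 with EGFP-positive library 3 alone (SE 0.24). Without EGFP-positive library 3 it was 0.32. EGFP-positive library 1 exceeded EGFP-negative library 1 by only 0.10, and the second Tmem63b probe set stayed between 1.11 and 1.21. Tmem63c ranged from 1.48 to 1.89, and its groups also did not overlap, at 1.89, 1.67 and 1.73 against 1.66, 1.58 and 1.48.

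TMC genes fell into dim and brighter members. Tmc1 and Tmc2, which encode the mechanotransduction channel of inner ear hair cells, read 1.04, 1.10 and 0.99 against 1.78, 1.27 and 1.25, and 1.12, 1.14 and 1.04 against 1.35, 1.27 and 1.18. Although lower in each EGFP-positive library, all but 1 of these values lay in or below the TrpnX range. The log2 difference of Tmc1, -0.39, was -0.22 without EGFP-negative library 1 and -0.45 (SE 0.30) with EGFP-positive library 3 alone. Its other probe sets, 1421626_at and 1430818_at, differed by 0.04 and 0.09, in the opposite direction, and the mean of its 3 probe sets by -0.09. Tmc6, also called EVER1 and bound to the product of its neighbour Tmc8, read 5.86, 5.56 and 4.98 against 5.13, 5.40 and 4.54. It was higher in the EGFP-positive library of each pair, by 0.73, 0.16 and 0.44, a log2 difference of 0.44 (SE 0.32, limma adjusted p = 1.00, and 0.675 with the replicate block, SE 0.16). Against the mean of all EGFP-negative libraries, EGFP-positive library 3 differed by only -0.044. The difference of Tmc6 was 0.20 without EGFP-negative library 3 and 0.69 without EGFP-positive library 3. Tmc8 itself ranged from 1.14 to 1.94. Tmc4, an epithelial member, read 5.74, 4.69 and 2.66 against 3.74, 4.75 and 3.52, a range within the EGFP-positive group that exceeded the group difference of 0.36 (SE 0.83). With EGFP-positive library 3 alone, the difference was -1.34 (SE 0.60). Tmc5 ranged from 1.52 to 2.27, and Tmc7 read 1.15, 1.51 and 2.99 against 1.51, 1.38 and 1.32. Tmc7 differed by 1.58 (SE 0.17, limma adjusted p = 0.163) with EGFP-positive library 3 alone.

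The values of Tmc4 and Trpm6 were set beside the epithelial list after they had been seen. The 7 epithelial genes averaged 8.36, 7.89 and 5.03 in the EGFP-positive libraries and 7.33, 7.57 and 5.83 in the EGFP-negative ones. Trpm6 read 3.22, 2.62 and 1.48 against 2.49, 2.66 and 1.95. In these readings both channel genes and the list had their highest value in EGFP-positive library 1 and their lowest in EGFP-positive library 3. The second Trpm6 probe set, 1427642_at, was instead highest in EGFP-negative library 1 (1.98) and lowest in EGFP-negative library 3 (1.28). The goblet cell gene Muc2 read 10.60, 8.80 and 5.91 against 5.30, 9.20 and 6.94. The 5 mesothelial genes also had this order in the EGFP-positive group, at 10.02, 9.32 and 7.53, against 9.64, 8.93 and 7.73. The part of these cells in the Tmc4 and Trpm6 values was not tested.

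Some of the members had their highest value in EGFP-positive library 3, where Mapt was detected. These were Asic1, Tmc7, Tmem63b, Trpc2, Trpc4, Trpc6, Trpm1 and Trpm3, or 8 of 40 (20.0%), against 19.5% of all genes. Another 8 members (20.0%) had their lowest value in this library, against 22.2% of all genes. A lead of at least 1 over the next library was seen for Trpm3 and Tmc7, 5.00% of the members against 3.40% of all genes. Trpm3, Tmc7, Trpc4 and Asic1, chosen for display after their values were seen, exceeded in this library their next highest value by 1.57, 1.47, 0.81 and 0.85. For Tmc7 and Trpc4, other probe sets did not share this lead, nor did Trpm3 probe sets 1441966_at, 1443723_at and 1457927_at. In library 3 the second Tmc7 probe set, 1459099_at, read 1.31 against 1.29 in EGFP-positive library 1. The other Trpc4 probe sets, 1446366_at and 1423579_a_at, read 1.47 and 1.11 there and were highest in other libraries, at 1.54 and 1.19. Asic1 had 1 probe set. The pan-neuronal list stood at 6.34 there, against at most 3.72 in the other libraries, and the enteric glia list at 7.92 against at most 6.22. Gfap, a glial filament gene, read 6.72 there and 2.53 to 3.63 elsewhere. Which of these cells the channel transcripts came from was not tested.

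**Figure D4:**
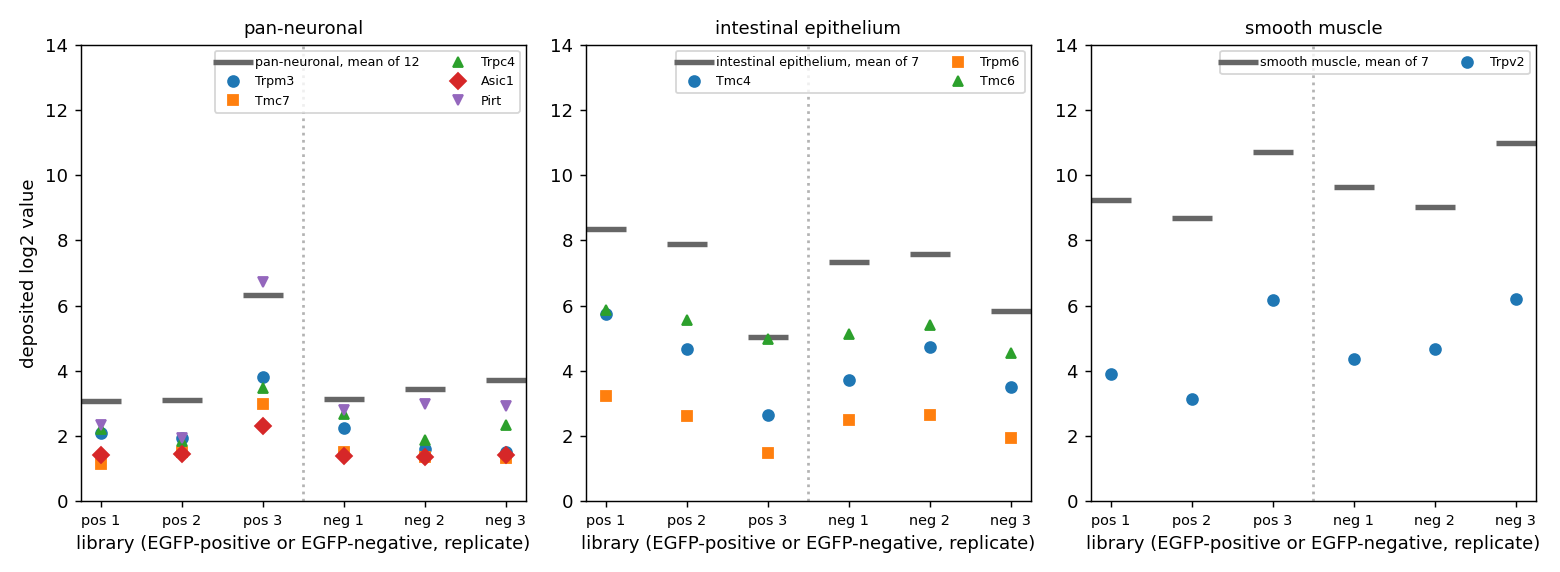
Deposited log2 values (vertical axis) by library (horizontal axis, EGFP-positive 1 to 3 left of the dotted line) of channel genes and the regulator Pirt, as coloured points, beside the mean of a marker list, as grey bars. EGFP-positive library 3 holds the highest pan-neuronal mean (6.34) and the highest Trpm3, Tmc7, Trpc4, Asic1 and Pirt values. It also holds the lowest epithelial mean (5.03) and the lowest Tmc4 and Trpm6 values, while Tmc6 is lowest in EGFP-negative library 3 (4.54).

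Genes that act with these channels were read from 4 lists holding 43 genes on the array. None passed over all genes (limma, lowest adjusted p = 0.986), where 0% of all genes did, and at an unadjusted p under 0.05, 2 were higher, beside 1.48% of all genes, and 1 lower, beside 3.43%. The median log2 difference was 0.02, with 22 means higher and 21 lower. By list it was -0.20 for 12 genes of calcium stores and store-operated entry, 0.12 for 11 Gq and phospholipase C genes, -0.17 for 8 receptors that sensitise TRP channels, and 0.19 for 12 channel partners. The groups did not overlap, with higher values in EGFP-positive libraries, for Itpr3, Gna11 and Plce1, or 3 of 43 beside 3.07% of all genes, and 0 of 43 were lower without overlap, beside 6.04%. With EGFP-positive library 3 alone their differences were 0.71, 0.78 and 2.04. Plce1, a phospholipase C regulated by Ras proteins, read 8.03, 7.96 and 9.60 against 7.31, 7.80 and 7.57, and Gna11, a Gq-class subunit, read 8.11, 7.73 and 7.94 against 6.62, 7.30 and 7.56. Itpr3, an IP3 receptor of calcium stores, read 6.70, 6.17 and 6.49 against 6.15, 5.64 and 5.54. Pirt, a membrane protein of sensory neurons that regulates Trpv1 and Trpm8, read 2.33, 1.94 and 6.73 against 2.81, 2.98 and 2.94. With EGFP-positive library 3 alone its log2 difference was 3.82 (SE 0.17, limma adjusted p = 0.0827). Its high value in EGFP-positive library 3 stood beside Trpv1 and Trpm8 values of 1.22 and 1.51 in the same library, in or near the TrpnX range.

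The lowest differences among these partners were those of Plcg2, Ptger2 and Ptger4. Plcg2, the phospholipase C of haematopoietic cells, read 3.68, 2.63 and 1.40 against 3.52, 5.69 and 5.31, a log2 difference of -2.27 (SE 0.80, limma adjusted p = 0.986), or -3.44 with EGFP-positive library 3 alone. The macrophage list was low in the same EGFP-positive libraries 2 and 3, at 3.41 and 2.36. It did not follow Plcg2 in the EGFP-negative group, at 8.18 in library 1, where Plcg2 was lowest, and 6.62 in library 3. Of the 9 lymphocyte and mast cell genes, 5 were lower without overlap, beside 6.04% of all genes. The mean of that list read 2.25, 1.64 and 1.42 against 2.64, 4.23 and 4.84. Like Plcg2, it fell from EGFP-positive library 1 to 3 and was lowest in library 1 of the EGFP-negative group. Its highest value was in EGFP-negative library 3, while that of Plcg2 was in EGFP-negative library 2. The part of these cells in the Plcg2 values was not tested. Ptger2 and Ptger4, receptors for prostaglandin E2, read 2.09, 2.36 and 3.34 against 2.17, 3.30 and 4.54, and 5.83, 6.24 and 5.23 against 5.48, 6.93 and 6.81, both with overlapping groups.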

How the data were processed

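Each of the 6 libraries was measured on a 1-colour array (Affymetrix Mouse Genome 430 2.0). The authors deposited a log2 value per probe set, using RMA, per the submitters' processing notes; version and settings are not given in the sources used here. That these are log2 values follows from their range (0.05 to 15.20). Library medians lay between 1.91 and 2.00 but upper quartiles between 4.08 and 4.86, which RMA with quantile normalisation would make nearly equal, and it is therefore unclear how these values were made. Dim values need care: 25.5% of the 45101 probe sets, and 10 of the 40 members, hold an identical value in several libraries.

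Symbols came from the platform annotation (34945 probe sets with 1 symbol, 932 with several, 9160 with none, 64 controls). limma 3.58.1 in R 4.3.3 (lmFit, eBayes, two-sided) compared the groups over all 18193 genes, with Benjamini-Hochberg adjustment. Differences are EGFP-positive minus EGFP-negative values. The libraries are labelled biological replicates, and their number limits the precision. Data were simulated with these spreads, with independent noise for each gene and library. In them, 200 genes changed by 1, 2 or 4 were recovered at 17.0%, 68.5% and 92.0%. Deviations shared between libraries or genes were not simulated, so these rates may not hold for the measured data. Same-numbered libraries deviated together over all genes (correlations 0.36, 0.33 and 0.42, against -0.41 to -0.01 for different numbers). Deviations were taken from group means, so higher values within numbers go with lower ones between them. The labels state no pairing, so a replicate block was used only beside the unblocked comparison.

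Values are given for members above 4 in any library, members apart by at least 1, and those with the 3 highest and 3 lowest differences (15 genes); others are given by range, or named after their values were seen. Members and lists were chosen with earlier results of these data known. Of the 12 marker lists and 4 partner lists, genes without a usable probe set were not analysed here. Alternatives were other scalings, filters, probe set choices, variances, array weights, the block and leaving out each library. A test per probe set and EGFP-positive library 3 alone were added after the data were seen. Plots were made in matplotlib 3.10.9 under Python 3.11.15 with pandas 2.3.3.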

Additional observations from a re-analysis of the deposited data

How the results depend on the processing

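No member passed at adjusted p 0.05 in any alternative run. Over all genes the count was also 0 in each, the replicate block (0 genes) included, except without EGFP-positive library 1, where it was 2; without single libraries the count ran from 0 to 2. The median over members, 0.06, was 0.41 with ribosomal centring and 0.36 among genes above the median level, where 11 members remained to be tested. In the EGFP-positive group, 7 of 40 members were above 4 in all libraries, beside 7251 of all 18193 genes. In the EGFP-negative group these numbers were 5 and 7031. The number of members was 2 and 1 at a level of 6, and 10 in each group at a level of 3. For the 15 named members, 21 of 236 alternative differences turned sign and 0 gained a call. Ribosomal centring turned Mcoln1 (0.15) and Pkd1 (0.33), median centring Pkd1 (0.037), and array weights Trpc1 (-0.23) and Trpm7 (-0.034). With EGFP-positive library 3 alone, Pkd1 (0.35), Tmc4 (-1.34), Tmc6 (-0.044), Trpm4 (-0.015) and Trpv2 (1.08) turned. Leaving out single libraries gave ranges that cross 0 for Mcoln1 (-0.55 to 0.016), Pkd1 (-0.84 to 0.46), Tmc4 (-0.33 to 1.21), Trpc1 (-0.65 to 0.52) and Trpm7 (-0.33 to 0.51). The cause of these turns was not tested. The replicate block changed no call of a member.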
